A study of Mus musculus with 6 samples.

Results

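Genes of the interferon response and of antigen presentation were followed in mDCT15 cells, a mouse cell line used as a model of the distal convoluted tubule of the kidney. The set was chosen by gene symbol: interferon receptors, *Stat* and *Irf* factors, the interferon-induced families (*Ifit*, *Ifi*, *Ifitm*, *Oas*, *Gbp* and related genes), all genes named *H2-*, and the partners of class I presentation. It held 107 of the 20624 genes in the expression table, or 0.519%, and no symbol occurred more than once. RNA sequencing had been performed on 3 *Pkd1*-/- and 3 wild type samples of this line, labelled as biological replicates, all kept in the same serum-containing medium with no interferon or other treatment named in the labels. The *Pkd1*-/- cells were made by CRISPR-Cas9 editing. Their sample titles give the genotype as *Pkd1*-/-, whereas their genotype label calls it a knockdown. Whether the line is 1 clone is not given in the sources used here.

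The table gives 1 usable value per gene, the authors' mean over all 6 samples of counts scaled for sequencing depth, named the mean normalized count here. It pools both genotypes. No value of a single sample was available for analysis, so no genotype comparison and no test was made, a mean carries no error, and neighbours in an order of levels cannot be told apart by replicate spread. For the same reason *Pkd1* itself could not be compared between the genotypes. The summed mean over all genes was 16746088, and the 107 genes together took 0.417% of it. The depth of each sample is unknown. Because the samples are bulk cultures, few cells with much of an RNA cannot be told apart from many cells with little.

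Interferons are secreted proteins that bind receptors of paired chains at the cell surface. Type I interferon acts through *Ifnar1* and *Ifnar2*, and interferon gamma through *Ifngr1* and *Ifngr2*. Receptor-bound JAK kinases then phosphorylate STAT proteins. STAT2 and IRF9 belong to the complex that binds the interferon-stimulated response element, and STAT pairs bind the gamma-activated site. Target genes include sensors of viral RNA, proteins that block viral growth, GTPases that attack vacuoles holding microbes, and the machinery that shows peptides on class I and class II molecules. Class I molecules are found on almost every nucleated cell and consist of a heavy chain with beta-2 microglobulin, whereas class II is chiefly a product of professional antigen-presenting cells. Kidney tubule cells can carry both, and class II mainly under inflammation.

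The sequences below show how the response element sits in promoters of this set. They are windows of 30 bases from RefSeq promoters (build GRCm38.p6), written along the strand that reads GAAA, any 2 bases and GAAA again, with 1 match in capitals. Matches that overlap it, as in the *Isg15* and *Bst2* windows, are left in lower case. They were picked from several of the roles in which a match was found and to show the copies shared by duplicated genes.
B2m: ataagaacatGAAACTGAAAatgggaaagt
H2-T22: ttggggattcGAAAGTGAAActaagccaat
Stat2: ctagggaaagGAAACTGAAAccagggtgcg
Gbp2: ttaagacagtGAAAGTGAAActaaaagagt
Gbp7: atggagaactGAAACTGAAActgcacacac
Irgm2: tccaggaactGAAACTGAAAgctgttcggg
Igtp: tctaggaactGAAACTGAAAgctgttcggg
Bst2: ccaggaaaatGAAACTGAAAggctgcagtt
Isg15: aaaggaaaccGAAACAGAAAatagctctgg
Ifit3: gaggaaagtaGAAACTGAAAcagacttaaa
Ifit3b: gaggaaagtaGAAACTGAAAcagacttaaa
The *B2m* window lies at chr2:122147538-122147567, on the strand of the gene, with the match starting at position -139 from the first base of the gene. The *Stat2* window lies at chr10:128270266-128270295 with the match at position -222, on the strand opposite to the gene. The *Isg15* window lies at chr4:156200865-156200894 on the strand of the gene, with the match shown at position -66 and an overlapping match at position -72. A match at position -78 overlaps only the one at position -72 and starts before the window. The *Ifit3* and *Ifit3b* windows are letter for letter the same, at chr19:34583397-34583426 and chr19:34607793-34607822, both on the strand opposite to the gene.

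Of the 107 genes, 86 had a mean normalized count of at least 10, the minimum set for a well measured gene, which is 80.4% against 66.5% of all genes in the table and 85.3% of the protein-coding ones. A further 21 were under 10, and 4 of these were under 1. At the upper end, 61 reached 100. The median mean normalized count of the set was 120.1, close to the 104.5 of all genes and below the 473.7 of protein-coding genes. The set was thus not high as a whole: its sum was carried by a few genes, since *H2-D1* and *H2-K1* made up 28.4% of it.

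**Figure D1:**
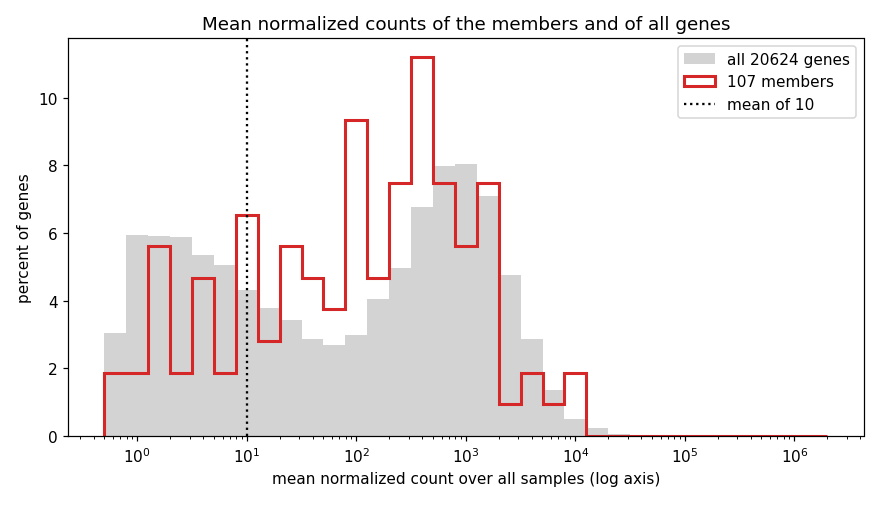
Distribution of the mean normalized count over all samples (log axis) for all 20624 genes (grey) and the 107 interferon and antigen presentation genes (red line), as percent of genes in each bin, with the minimum of 10 dotted. Most of the set lies to the right of the dotted line, with 86 genes at or above it and 21 below.

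Levels of different genes were compared per kilobase (kb) of merged exon, since a longer RNA gives more fragments. On this scale the median of the set was 32.3 per kb, against 28.6 for all genes and 72.7 for protein-coding genes. Among the top 10% of all genes per kb, at 310.7 or more, were 13 of the set: *H2-D1*, *H2-K1*, *B2m*, *Tapbp*, *Ifi30*, *Ifngr1*, *H2-Q4*, *Ifitm2*, *Irf2bpl*, *Bst2*, *Ifnar1*, *Stat3* and *Irf1*. None of the 6 class II chains and none of the 16 GTPases was among them.

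**Figure D2:**
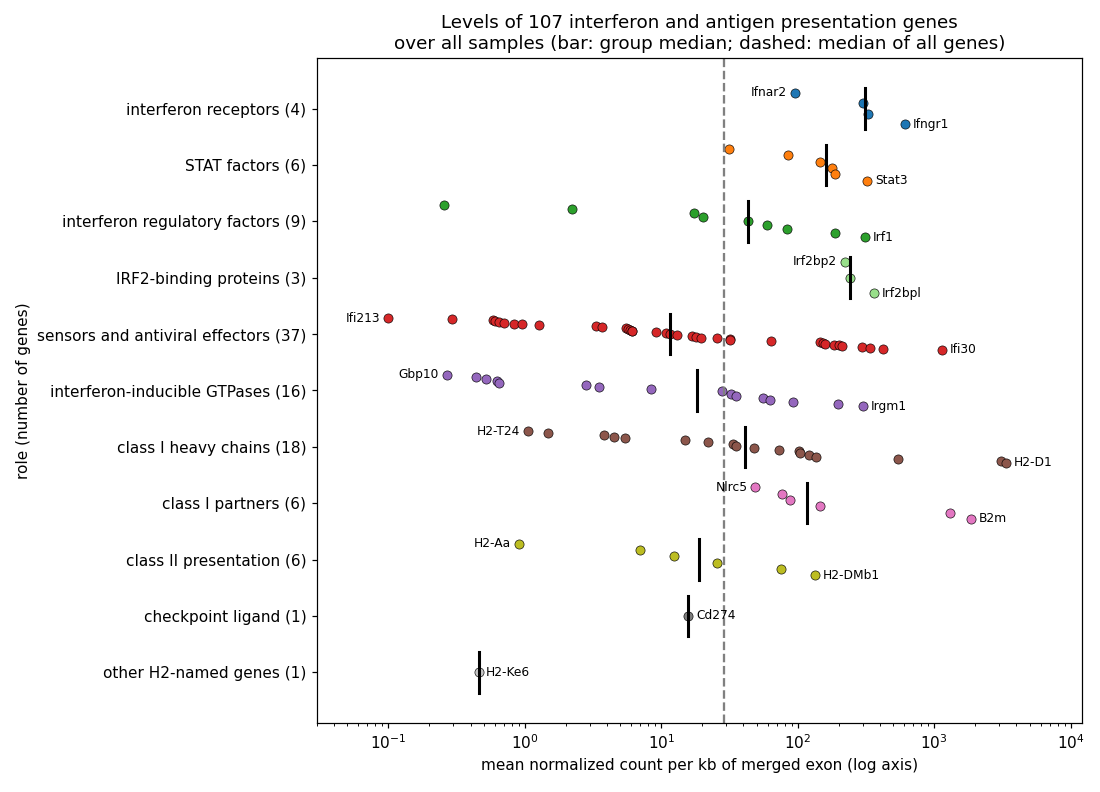
Mean normalized count per kb of merged exon (log axis) of each of the 107 genes, 1 point a gene, grouped by role; bars mark group medians, the dashed line the median of all genes at 28.6, and the highest gene of each group is named, with the lowest for most groups. All receptors, STAT factors and class I partners lie above the dashed line, whereas effectors, GTPases and class I heavy chains spread over 3 or more powers of 10.

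All 4 interferon receptor chains were well measured, with a group median of 313.0 per kb. *Ifngr1*, the ligand-binding chain for interferon gamma (chr10:19467697-19485977, GRCm39), had a mean normalized count of 1750 and 614.7 per kb. Its partner *Ifngr2*, which brings in JAK2, was at 1356 and 300.3 per kb. *Ifnar1*, a chain of the type I receptor (chr16:91281942-91305789), had the highest mean normalized count of the group at 2644, which is 325.6 per kb. *Ifnar2*, the chain with the higher affinity for type I interferon, was lowest on both scales, with a mean normalized count of 357 and 95.3 per kb. Both chains of both receptors were therefore present as RNA, the type I chains at unequal levels per kb.

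The 6 STAT factors in the table were likewise all above 10, with a median of 161.2 per kb. *Stat3*, which serves interleukin-6 family cytokines, stood highest with a mean normalized count of 3266 and 323.5 per kb. *Stat6*, the factor of interleukin-4 signalling, had a count of 1256 and 187.9 per kb. *Stat5b* and *Stat5a*, both targets of growth hormone and prolactin receptors, were at 1232 and 696 in count, or 178.1 and 84.3 per kb. *Stat2*, a part of the type I interferon complex, was at 910 and 144.3 per kb. *Stat4* was not analysed here.

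Among the 9 interferon regulatory factors, 8 were at 10 or more, and the median was 43.0 per kb. *Irf1*, an early target of interferon gamma, led with a mean normalized count of 1459 and 312.0 per kb. *Irf3*, which switches on interferon beta after RNA or DNA sensing, was at 650 and 186.8 per kb. *Irf9*, the DNA-binding part of the type I interferon complex, was at 487 and 83.9 per kb, and *Irf2*, a repressor of several interferon targets, at 667 and 59.7 per kb. *Irf7*, the amplifier of type I interferon production, was at 162 and 43.0 per kb. Lower per kb were *Irf5* with a count of 145 and 20.2 per kb, and *Irf8*, best known from myeloid cells, with a count of 169 and 17.3 per kb. The lymphoid factor *Irf4* had a count of 10.8, just over the minimum. The order of neighbours turned with the scale: *Irf8* was above *Irf7* by count and below it per kb. The symbol pattern also took in *Irf2bp2* with a count of 1574, *Irf2bpl* with 1492 and *Irf2bp1* with 661, which encode proteins named for binding IRF2 and are not IRF factors.

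Sensors and antiviral effectors formed the largest group, with 37 genes, of which 28 were at 10 or more and 14 at 100 or more. Their median was low, at 11.6 per kb, while single genes were high. *Ifi30*, a lysosomal enzyme that reduces disulfide bonds of antigens before class II loading, had a mean normalized count of 1188 and 1141 per kb. *Ifitm2*, a membrane protein that blocks entry of viruses, had a count of 418 and 417.9 per kb. *Bst2*, or tetherin, which holds budding viruses at the cell surface, was at 409 and 336.8 per kb. *Ifit2*, a member of a family that binds viral RNA and limits its translation, was at 1743 and 295.2 per kb. At the other end stood the pseudogene *Ifi203-ps* with a count of 0.743 and *Ifitm1* with 0.807, close to the lowest mean in the table, 0.618.

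Families within this group are given by their genes in the table, with the number of other annotated protein-coding genes of each family that were not analysed here. All 6 *Ifit* genes were at 10 or more, from 21.5 to 1743 in mean normalized count, and the family has 0 others. Of the 8 *Oas* and *Oasl* genes in the table, a family named for enzymes that make the messenger activating RNase L, 4 were at 10 or more and the highest count was 203.3, with 4 others not analysed here. Of the 6 genes from *Ifi202b* to *Ifi213*, a cluster that includes DNA-binding sensors, 4 reached 10 and the highest count was 115.4, with 6 others not analysed here. The 5 *Ifitm* genes ran from 0.807 to 417.5, with 3 at 10 or more and 2 others not analysed here. The RNA sensors *Ddx58* (RIG-I) and *Ifih1* (MDA5), named here for their role after their values were seen, had mean normalized counts of 1221 and 287.8.

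The 16 interferon-inducible GTPases had a median of 18.1 per kb, and 10 of them were at 10 or more. *Irgm1*, a regulator of the immunity-related GTPases and of autophagy, was highest with a mean normalized count of 1903 and 299.4 per kb. *Gbp2*, a guanylate-binding protein that coats microbial vacuoles, was at 504 and 197.0 per kb. *Irgm2* was at 346 and 92.5 per kb, and *Gbp7* at 373 and 62.2 per kb. Lowest by count were *Gbp10* at 1.57 and *Gbp11* at 1.69. All 5 immunity-related GTPases (*Irgm1*, *Irgm2*, *Igtp*, *Iigp1* and *Ifi47*) were above the minimum, from 17.8 to 1903 in count, whereas 5 of the 11 *Gbp* genes were.

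Class I heavy chains held the highest genes of the whole set, and 33.8% of its summed mean. *H2-D1* (chr17:35481691-35486475) had a mean normalized count of 10012 and 3346 per kb, and *H2-K1* (chr17:34214987-34219321) one of 9788 and 3073 per kb. Both are the classical class I chains that present peptides to CD8+ T cells, and their counts stood at a ratio of 0.978. The non-classical genes were lower: *H2-Q4* had a count of 1902 and 541.4 per kb, and *H2-T22*, a ligand of some gamma-delta T cell receptors, a count of 466 and 136.1 per kb. The lowest by count were *H2-M5* at 4.43 and *H2-T24* at 5.15. Of the 18 genes in this group, 15 were at 10 or more and 16 are annotated as protein-coding, *H2-K2* and *H2-T-ps* being transcribed pseudogenes.

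The 6 partners of class I were all at 280 or more in mean normalized count. *B2m*, the light chain shared by all class I molecules (chr2:121977957-121983594), was at 3923 and 1863 per kb. *Tapbp*, or tapasin, which bridges the heavy chain to the peptide transporter, was at 5715 and 1296 per kb. The transporter subunits *Tap2* and *Tap1* had counts of 691 and 461, or 145.0 and 76.8 per kb. *Tapbpl*, a peptide editor related to tapasin, was at 280 and 87.3 per kb, and *Nlrc5*, the transactivator of class I promoters, at 412 and 48.5 per kb. Every part of the loading complex in the set was thus measured, with the light chain and tapasin more than 8 times above both transporter subunits per kb.

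Class II presentation was lower. *H2-DMb1*, a chain of the peptide-exchange molecule H2-DM, was highest with a mean normalized count of 225.5 and 134.2 per kb, and its partner *H2-DMa* was at 110.7 and 25.6 per kb. The classical beta chain *H2-Ab1* had a count of 192.5 and 75.0 per kb, while its alpha partner *H2-Aa* had a count of 3.88 and 0.903 per kb. *H2-DMb2* was at 23.1 in count and 12.4 per kb, and *H2-Eb1* at 18.1 and 6.99 per kb. The 2 chains of the I-A molecule were therefore far apart in level, with the alpha chain under the minimum. *Cd274*, the checkpoint ligand PD-L1, had a count of 64.3 and 15.8 per kb. *H2-Ke6*, an enzyme gene of the H2 region that presents no antigen and was taken by its symbol alone, was at 0.760.

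The wider pathway was read from a list of 44 genes outside the set. Of these, 39 were in the table and 37 had a mean normalized count of at least 10. The 4 highest per kb were *Calr*, *Canx* and *Pdia3*, general chaperones of the endoplasmic reticulum that also fold class I, at 5244, 2193 and 1724 per kb, and the phosphatase *Ptpn11* at 757.9 per kb. The 2 genes under the minimum were both sensors of nucleic acid, *Cgas* with a count of 3.93 and *Zbp1* with 5.59. *Ciita*, the transactivator of class II, and the interferon genes *Ifnb1*, *Ifng*, *Ifnl2* and *Ifnl3* were not analysed here. The class II invariant chain *Cd74*, named here because of its role, had a count of 18.6. The kinases *Jak1*, *Jak2* and *Tyk2*, named for the same reason, had counts of 4583, 981 and 353, or 423.4, 155.0 and 40.4 per kb. The inducible proteasome subunits *Psmb8*, *Psmb10* and *Psmb9* were at 321.5, 251.9 and 45.4 per kb.

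Markers were checked for the labelled cell type and for others. Of 7 distal convoluted tubule markers, 4 were in the table and 3 were at 10 or more (*Wnk4* 413.4, *Egf* 48.3 and *Trpm6* 29.6 in mean normalized count), whereas the sodium-chloride cotransporter *Slc12a3*, *Pvalb* and *Calb1* had no row among the genes analysed. Of 7 kidney epithelium markers 5 were in the table and 4 were at 10 or more, with *Pax8* at 4905, *Cdh16* at 4680, *Pax2* at 2428, *Epcam* at 115.4 and the keratin *Krt8* at 0.980, and *Cdh1* and *Krt18* had no row among the genes analysed. Of 8 leukocyte markers 3 were in the table, with *Ptprc* at 5.36, *Lyz2* at 2.57 and *Csf1r* at 849.8. The single endothelial marker in the table, *Pecam1*, was at 4.68. Of 5 fibroblast markers *Vim* was at 17450 and *Col1a1* at 200.6, and the other 3 were between 2.71 and 4.48. The part of other cell types in the levels of the set was not tested.

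Since the set was chosen by family symbols, some grouping along chromosomes follows from the choice. Clustering of all genes was not computed for comparison. Of the 107 genes, 69 fell into 9 clusters of at least 3 genes, with no gap over 1 Mb between neighbours. The H2 region on chromosome 17 held 28 of them over 3451 kb (chr17:34134873-37585384), 23 at a mean normalized count of 10 or more, and included *Tapbp*, *Tap1* and *Tap2*. The *Ifit* cluster on chromosome 19 held 6 genes over 111.9 kb, all at 10 or more. Of the *Gbp* clusters, that on chromosome 3 had 3 of 5 genes at 10 or more with a median of 27.8 per kb, and that on chromosome 5 had 2 of 6 with a median of 0.575 per kb. The chromosome 5 *Oas* cluster had 3 of 6. *Ifnar2*, *Ifnar1* and *Ifngr2* lie within 192.9 kb on chromosome 16, and *Stat5b*, *Stat5a*, *Stat3* and *Ifi35* within 681.1 kb on chromosome 11. In each of the *Gbp*, *Oas* and H2 clusters, genes above the minimum lay beside genes under 10.

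**Figure D3:**
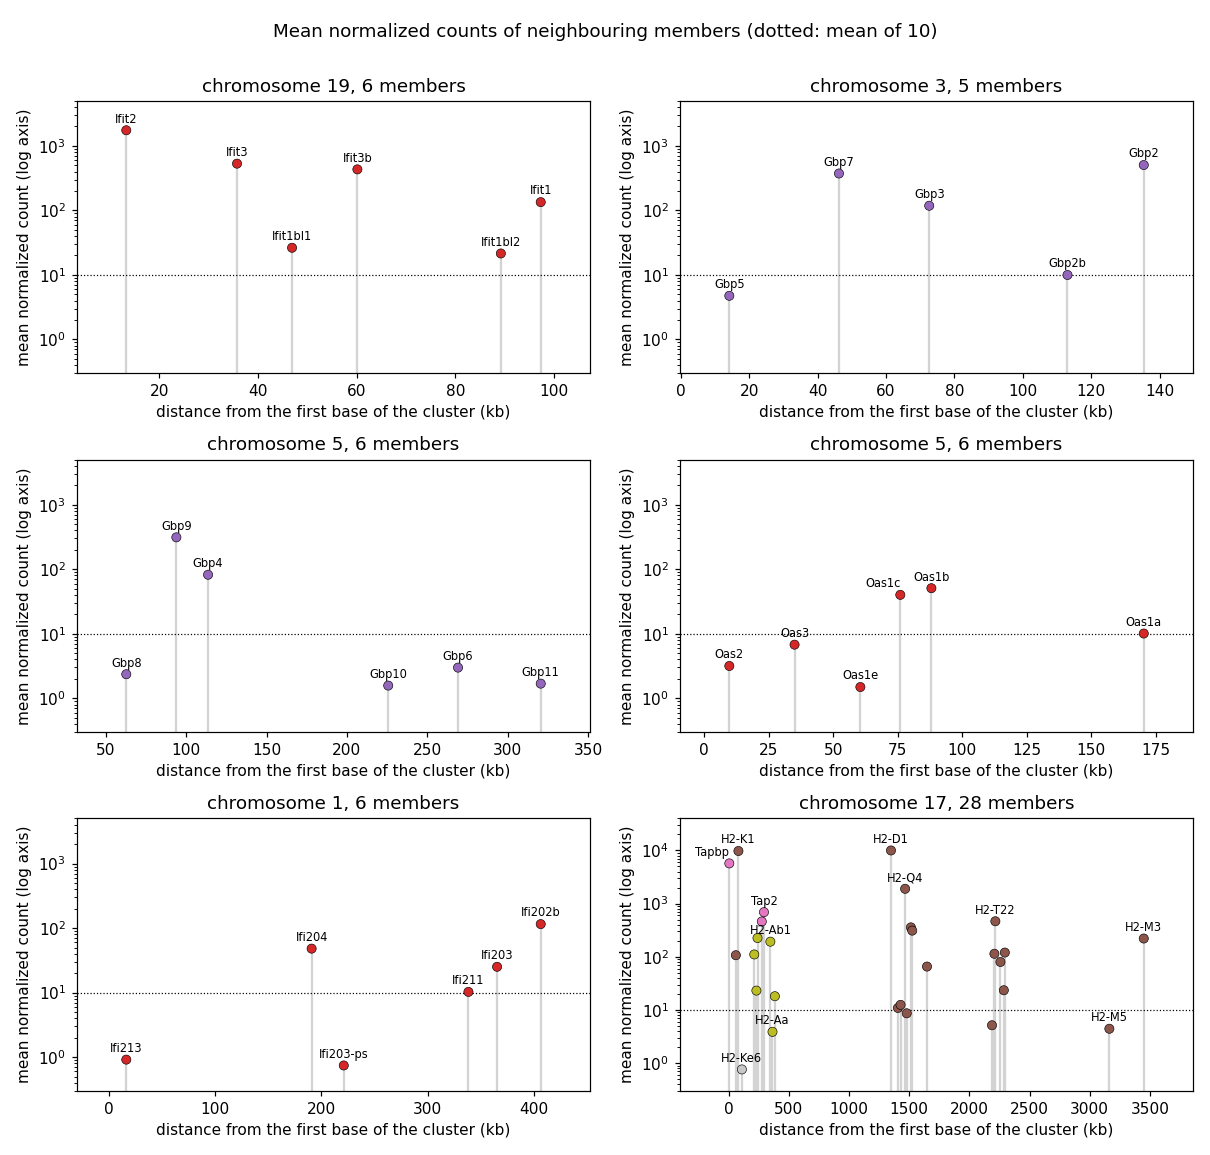
Mean normalized count over all samples (log axis) of neighbouring genes in 6 clusters against distance from the first base of the cluster in kb, 1 point a gene coloured by role, with the minimum of 10 dotted; in the chromosome 17 panel only some genes are named. In the *Ifit* panel (chromosome 19) all 6 points lie above the dotted line, and in the chromosome 5 *Gbp* panel only *Gbp9* and *Gbp4* do.

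Many of these clusters arose by duplication, so reads of one gene can match another. Reads were 42 bases long and sequenced in pairs, and the counting program in its default mode does not count a read that maps to several places. The share of each gene's distinct 42-base stretches that also occur elsewhere in the genome or in transcripts of other genes was therefore computed. The median over the set was 4.41%, with 43 genes over 10% and 7 over 50%. Those 7, singled out by this value, were *H2-Q6* at 85.8%, *H2-Q7* at 83.1%, *Ifi211* at 71.2%, *Gbp6* at 69.0%, *Gbp10* at 68.1%, *H2-Q5* at 52.1% and *Ifit3b* at 52.1%. Class I heavy chains had the highest median among the roles, 25.1%, with 16 of 18 over 10%, whereas no receptor was over 7.97% and no class I partner over 4.41%. Counts of the 7 genes are uncertain for this reason. So are those of others with large shares, such as *Ifit3* at 44.0%, *H2-Q4* at 39.6% and *H2-T22* at 39.4%. Per kb of unique sequence *H2-Q6* was at 738.2 in place of 104.5, and *H2-Q7* at 430.2 in place of 72.8. Both were then above *H2-T22*, at 224.7. *H2-D1* and *H2-K1*, with 19.2% and 19.4% shared, moved from 3346 to 4143 and from 3073 to 3811.

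**Figure D4:**
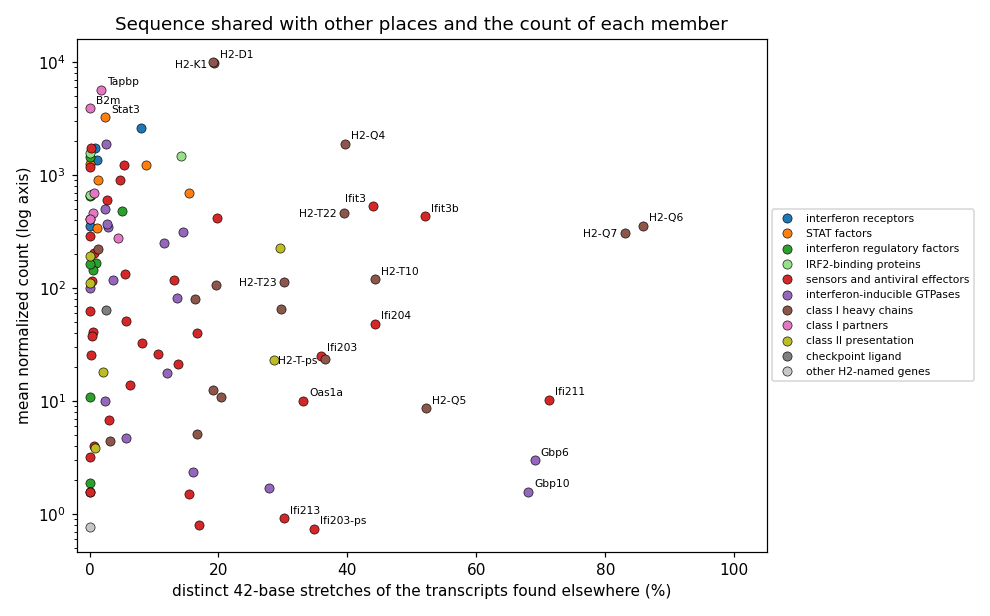
Mean normalized count over all samples (log axis) against the percent of a gene's distinct 42-base transcript stretches that are found elsewhere, 1 point a gene coloured by role; genes with the largest shares or counts are named. *H2-Q6* and *H2-Q7* stand at the right with counts of 358 and 311, and all receptors and class I partners lie under 10%.

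Stretches of 90 coding bases from the reference genome (GRCm39) are shown for 2 pairs. They are the pair with the highest counts and the pair with the highest coding identity among the 13 pairs aligned. Each stretch was placed at the start of the pair's longest identical run, so it does not measure how alike the whole coding sequences are. Capitals mark the single base at which the members of a pair differ within the stretch.
H2-K1: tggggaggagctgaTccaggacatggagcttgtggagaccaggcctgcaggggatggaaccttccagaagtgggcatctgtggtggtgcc
H2-D1: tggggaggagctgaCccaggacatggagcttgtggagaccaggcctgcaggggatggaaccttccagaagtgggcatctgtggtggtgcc
Ifit3: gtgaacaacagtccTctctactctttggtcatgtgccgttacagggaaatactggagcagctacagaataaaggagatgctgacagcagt
Ifit3b: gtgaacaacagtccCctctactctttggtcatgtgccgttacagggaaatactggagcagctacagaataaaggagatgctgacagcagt
The *H2-K1* stretch lies at chr17:34216333-34216422 on the minus strand and the *H2-D1* stretch at chr17:35484872-35484961 on the plus strand, each in exon 4 of 8. The *Ifit3* and *Ifit3b* stretches lie at chr19:34565269-34565358 and chr19:34589639-34589728 on the plus strand, each in exon 2 of 2. Over the whole coding sequence *Ifit3* and *Ifit3b* were 99.1% identical, with 11 mismatches in 1212 bases and a longest identical run of 329 bases. Their mean normalized counts were 529.8 and 431.9. *Gbp6* and *Gbp10* were 98.4% identical and both under the minimum. *H2-DMb1* and *H2-DMb2* were 95.9% identical, with counts of 225.5 and 23.1. *H2-K1* and *H2-D1* were 88.3% identical, with a longest identical run of 91 bases. A read inside such a run cannot be placed on 1 of the 2 genes unless its mate can.

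Overlap with other genes was another possible limit on single values. In the GENCODE annotation used here, exons of 64 of the 107 genes overlapped another annotated gene. Of these, 21 did so on the same strand and 52 on the opposite strand. The authors counted reads against an Ensembl annotation, in which overlaps were not computed. Some of the overlapping genes had no mean normalized count here, so these numbers need not hold for the annotation used in counting. *H2-DMa*, with a mean normalized count of 110.7, shared 510 exonic bases with *Brd2* on the opposite strand, which was at 5857. *Irf5* shared 416 bases with *Tnpo3*, at 2868, and *Irf7* shared 63 bases with *Phrf1*, at 1922, both on the opposite strand. *Tapbp* shared 923 bases on its own strand with *Zbtb22*, at 630.8. How these overlaps change the counts, by reads gained or lost, was not tested.

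The promoters were then searched for the 2 elements of interferon signalling. At least 1 RefSeq promoter, from 250 bases before to 50 bases after the start of the gene, was matched for 79 of the 107 genes. The letters of the interferon-stimulated response element, GAAA followed by any 2 bases and GAAA, on either strand, were found in 31 of these (39.2%), against 3.99% of all 27025 genes with a promoter. The letters TTCNNNGAA of the gamma-activated site, which read the same on both strands, were found in 18 (22.8%), against 9.55% of all genes. Because the set was chosen by names of interferon-induced families, higher shares than in all genes can follow from the choice. Matches are also not all separate, since the response element matches of *Ifit1* and *Ifit1bl2* lie at the same bases. Of the 16 interferon-inducible GTPases, 9 had a matched promoter, and 8 of these held the response element. Among the 8 are *Gbp2*, *Gbp7*, *Irgm2* and *Igtp*, printed above. Of the sensors and antiviral effectors, 18 of the 28 with a matched promoter held it. It was found in 2 of 12 class I heavy chains (*H2-T22* and *H2-T23*), 1 of 3 class I partners (*B2m*), 1 of 5 STAT factors (*Stat2*), 1 of 8 interferon regulatory factors (*Irf2*), and in no receptor and no class II gene. The gamma-activated site letters were found in *Irf1*, *Irf2* and *Irf8*, and in the receptor chains *Ifnar1* and *Ifnar2*. A match describes letters in a window and does not show binding.

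**Figure D5:**
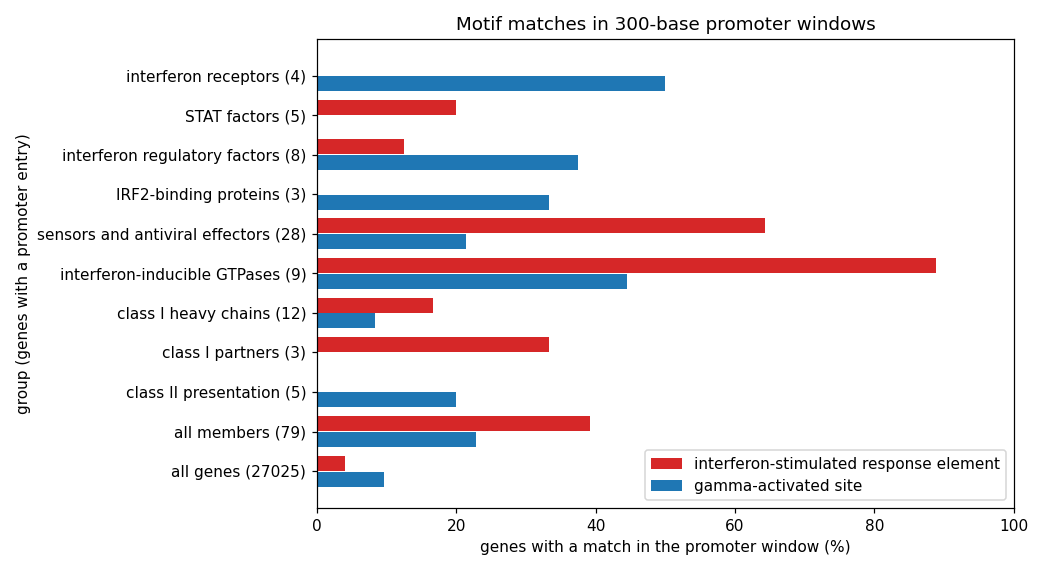
Percent of genes whose 300-base promoter window holds the letters of the interferon-stimulated response element (red) or of the gamma-activated site (blue), by role. Shown are roles with at least 3 genes that have a promoter entry, all 79 matched genes of the set and all 27025 genes. The number of genes with a promoter entry is in parentheses. GTPases and effectors have the longest red bars, at 8 of 9 and 18 of 28 genes, against 3.99% of all genes.

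Genes with a match to the response element letters were not the higher ones, but the split also followed role. A match was found in 8 of 9 GTPases and 18 of 28 effectors, against 0 of 4 receptors and 1 of 5 STAT factors. Level by match was not separated from level by role. The 31 with a match had a median mean normalized count of 134.2, ranging from 0.916 to 3923, and a median of 33.3 per kb. The 48 without a match had a median of 268.1 in count and 80.3 per kb. With a match, 27 of 31 were at 10 or more, and without, 42 of 48. *H2-D1* and *H2-K1*, the highest of the set, held the searched letters of neither element in this window. *Ifi213*, the lowest per kb at 0.0994, held those of the response element. Elements that depart from these letters were not searched for, so a missing match does not show that an element is absent.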

How the data were processed

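RNA sequencing libraries of 3 *Pkd1*-/- and 3 wild type samples were prepared by the authors with ribosomal RNA removal and read as pairs of 42 bases. The authors trimmed reads with Trim Galore 0.4.5, mapped them to GRCm39 (Ensembl 105) with STAR 2.7.5a, counted genes with HTSeq 0.11.0 in default mode and compared genotypes with DESeq2 1.22.0. No strand setting other than the default mode of the counting program is named. The mouse strain of the line is not given in the sources used here, and H2 genes were counted against the reference haplotype. The deposited signal values are the authors' mean normalized counts over all 6 samples. Of the deposited columns, 5 hold the authors' own comparison (fold change, standard error, Wald statistic, p-value and adjusted p-value) and were not used. Depth and error per sample are therefore unknown.

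Genes were matched by Ensembl identifier to GENCODE M39 on GRCm39, in which 20122 rows (97.6%) were found. Counts were divided by merged exon length. Sequence shared with other places was measured on distinct stretches of 42 bases by a program tested on simulated data with known answers. RefSeq promoters are on GRCm38.p6. Coding pairs were aligned with Biopython 1.88, and other steps used Python 3.11.15, numpy 2.4.6 and pandas 2.3.3. Members and lists were chosen with earlier results of these data known. The text names all receptors, STAT and IRF factors except 2 that are not reported here, in each other role the 4 highest per kb and the 2 lowest by count, and in the pathway list the 4 highest per kb and those under the minimum of 10. Other genes are named for shared sequence, position, motif or role, after their values were seen. Another 32 annotated protein-coding genes that match the symbol rule, such as *Mx1* and *H2-Oa*, were not analysed here.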

Additional observations from a re-analysis of the deposited data

How the results depend on the processing

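No paired analysis was possible because the values pool all 6 samples, although the labels number the replicates 1 to 3 in both genotypes. For the same reason the planned genotype test, its other tools and filters, and the leaving out of single replicates could not be run. The number of genes in the set was 107 under all 3 ways of treating repeated symbols. The count of 86 at a minimum of 10 became 103 at a minimum of 1 and 61 at a minimum of 100. The median of the set lay at percentile 51.0 of all genes, 30.1 of protein-coding genes and 38.5 of genes at 10 or more. The median per kb, 32.3 with merged exons, was 52.5 with the longest transcript, 35.5 with unique sequence and 104.4 with coding length, since each divisor is shorter. Medians of single roles moved upwards or not at all, by at most 4.69-fold. Of the 10 highest genes per kb, 7 stayed among the 10 highest with the longest transcript and 8 with unique sequence. Coding length was not used for this count. With the longest transcript *H2-K1*, at 5223 per kb, stood above *H2-D1* at 4696. With coding length *B2m*, at 10216 per kb, stood above *H2-D1* at 8783. Genes with over 10% shared stretches numbered 43, 35 against transcripts only and 18 with 84-base stretches, the length of both mates. The response element was found in 39.2% of the genes with a promoter. This share became 18.99% when the second GAAA had to be followed by CT. It was also 18.99% when matches were counted on the strand opposite to the gene only. The gamma-activated site fell from 22.8% to 7.59% with TTCCNGGAA. In all genes the response element followed by CT was found in 0.303% and the stricter gamma-activated site in 1.35%.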
